A study of Mus musculus with 24 samples.

Results

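The interferon response and class I antigen presentation genes were followed in mammary epithelial cells of mice that lack the transcriptional regulator Id4 and of wild-type mice. The 40 members were chosen by gene symbol, and each had 1 row among the 24004 genes with a gene identifier in the count table. They comprise 4 transcription factors, 3 sensors of viral RNA, 6 genes of the Isg15 system and ubiquitin ligases, and 12 antiviral effectors. The rest are 3 other interferon-induced genes, 3 guanylate-binding proteins, 5 genes of the immunoproteasome and peptide transporter, and 4 class I molecules. Id4 KO and WT females of the inbred strain FVB/N were sampled at estrus at an age of 10 to 12 weeks. Each replicate pooled the glands of 4 to 8 mice. The KO line is one described earlier, and the labels do not say which part of Id4 it has lost. Live lineage-negative cells were sorted by surface protein into basal cells (CD24+CD29hiCD61+), luminal progenitors (LP, CD24+CD29loCD61+) and mature luminal cells (ML, CD24+CD29loCD61-). KO and WT basal, KO and WT LP, and KO and WT ML cells had 4 biological replicates each, which gave 24 RNA-seq libraries made from 0.5 to 2 ng of amplified RNA. Basal cells are the contractile outer layer of the mammary duct, LP cells the progenitors of the inner layer, and ML cells its hormone-sensing cells.

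Interferons bind surface receptors, whose signals switch on a large set of antiviral genes. Signals of type I and III interferons reach genes through the interferon-stimulated response element, which is bound by a complex that holds Stat2 and Irf9, and those of interferon gamma through the gamma-activated site. Irf1, itself induced by interferon gamma, drives the immunoproteasome and the transporter that load peptides of the cell's own proteins on class I molecules, which are shown to T cells. Many of these genes are also transcribed at a low, tonic level without infection, in epithelia as in other tissues.

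Library totals ran from 3098433 to 7246445 counts, and 3 counts corresponded to 0.378 to 0.976 CPM (counts relative to the library total, on 1 TMM scaling of all 24), the limit that a count of 0 allows for counting error only. The markers of each sorted population were highest in the libraries labelled with it. WT basal replicate 2 stood furthest apart. It had a summed level of 4352 CPM over 6 LP markers and 143 CPM over 15 immune markers. The other WT basal libraries had 173 to 394 CPM and 13.5 to 18.2 CPM. Over the other 23 libraries the immune sum was 2.38 to 31.2 CPM. KO basal replicate 2 also had a high LP marker sum, 1153 CPM against 173 to 440 CPM in the other KO basal libraries. The sum was 1134 CPM in KO ML replicate 2, against 126 to 318 CPM in the other KO ML libraries. Neither of these was left out on its own. The pan-leukocyte gene Ptprc was at 0 in 11 libraries, and Adgre1, Cd79b and Nkg7 were at 0 in at least 22. The macrophage genes Cd68, Csf1r and Lyz2 were at 0 in none, 2 and 3 libraries, and Lyz2 averaged 13.1 CPM in KO basal and 20.7 CPM in WT basal libraries. The highest counts of Lyz2 (341) and of the T cell gene Cd3e (230) fell in WT basal replicate 2, which raised the WT basal means of both (20.7 and 11.4 CPM). The sum of 6 ML markers was 819 to 1812 CPM in KO LP and 538 to 827 CPM in WT LP libraries. KO basal replicate 3 had the smallest total and an endothelial sum of 218 CPM over 10 markers, against 59.8 to 69.9 CPM in the other KO basal libraries. The sum of 8 fibroblast markers was uneven in luminal libraries. It was 127 to 543 CPM in KO LP, 107 to 398 CPM in WT LP and 90.1 to 398 CPM in KO ML libraries. In WT ML libraries it was 146 to 1082 CPM, and Dcn alone averaged 559 CPM there. Id4 itself stood at 0.942 to 11.1 CPM in KO basal and 13.2 to 86.3 CPM in WT basal libraries, and at no more than 1.41 CPM in any luminal library.

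Promoters of 4 members are shown for the response elements their letters contain: B2m, the most abundant of these 4, Irf1 and Stat2, the factors with higher levels in basal than in LP cells, and Isg15, the member with the most copies of the first of the elements searched. Each is the 250 bases before the RefSeq start on build GRCm38.p6, written 5′ to 3′ on the gene's own strand, with matches in capitals. The windows are chr2:122147437-122147686, plus strand for B2m, chr11:53769764-53770013, plus strand for Irf1, chr10:128270248-128270497, plus strand for Stat2 and chr4:156200819-156201068, minus strand for Isg15.
B2m: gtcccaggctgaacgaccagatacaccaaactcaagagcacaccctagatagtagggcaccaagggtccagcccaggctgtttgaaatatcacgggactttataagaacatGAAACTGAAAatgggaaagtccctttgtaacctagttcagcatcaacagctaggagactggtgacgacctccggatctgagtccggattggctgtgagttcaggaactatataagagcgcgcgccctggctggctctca
Irf1: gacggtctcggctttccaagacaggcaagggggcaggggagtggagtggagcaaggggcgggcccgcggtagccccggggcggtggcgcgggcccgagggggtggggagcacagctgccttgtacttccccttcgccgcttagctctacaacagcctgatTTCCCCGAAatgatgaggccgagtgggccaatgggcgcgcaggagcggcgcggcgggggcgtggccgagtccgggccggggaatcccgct
Stat2: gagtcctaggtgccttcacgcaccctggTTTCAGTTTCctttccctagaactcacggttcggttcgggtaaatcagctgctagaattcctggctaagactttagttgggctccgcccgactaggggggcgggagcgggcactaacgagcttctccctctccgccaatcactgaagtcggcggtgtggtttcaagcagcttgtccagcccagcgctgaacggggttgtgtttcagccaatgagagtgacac
Isg15: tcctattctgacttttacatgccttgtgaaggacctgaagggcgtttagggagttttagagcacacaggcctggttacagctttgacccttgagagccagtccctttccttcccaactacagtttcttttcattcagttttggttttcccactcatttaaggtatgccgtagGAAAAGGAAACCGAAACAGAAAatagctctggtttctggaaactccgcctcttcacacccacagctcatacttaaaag
The capitals in B2m and, on the other strand, in Stat2 mark the core of the interferon-stimulated response element (GAAA, any 2 bases, then GAAA again, searched on both strands). In Isg15 they mark 3 overlapping copies of that core. The capitals in Irf1 mark the core of the gamma-activated site (TTCNNNGAA, which reads the same on both strands). Windows from 250 bases before to 50 bases after the start were matched for 31 of the 40 members. The first core was found in 13 of these 31 windows (41.9%), against 3.45% of all 32544 windows, and the second in 7 (22.6%), against 8.33%. The first was present in all 3 guanylate-binding protein windows, in 5 of 9 antiviral effector windows and in both RNA sensor windows, and in none of the 4 immunoproteasome and transporter windows. Overlapping matches, as in Bst2, were counted separately. A match is a description of the letters in the window and shows no binding.

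Per length, transcripts of H2-K1, B2m and H2-D1 far exceeded those of the antiviral genes. As means of the 6 group means per kilobase of the table's gene length, H2-K1 stood at 497, B2m at 480.0 and H2-D1 at 228 CPM per kilobase. Next came Ifi27 at 40.8 and Samhd1 at 39.5 CPM per kilobase, and the lowest were Rsad2 at 0.603, Oas2 at 0.568 and Mx1 at 0.317 CPM per kilobase. The 9 antiviral effectors Oas1a, Cmpk2, Ifit2, Ifit3, Mx2, Ifit1, Rsad2, Oas2 and Mx1 were all at or below 1.30 CPM per kilobase. Isg15 stood at 2.49 CPM per kilobase, with 3 response element cores in its window. Reads of near-identical copies, such as H2-Q6 with its neighbours in the H2-Q family, Oas1a with Oas1g, or the guanylate-binding proteins, were divided between them by estimation, so their levels are uncertain. FVB/N mice also carry another H2 haplotype than the reference genome, which bears on H2-K1, H2-D1 and H2-Q6.

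By group mean, ML cells were the population with the highest level for 21 of the 40 members in KO and for 21 in WT. LP cells were highest for 12 in each genotype and basal cells for 7 in each, and basal cells were lowest for 25 in each. For 27 of the 40, the highest population was the same in KO and WT. Over the 23 members with a mean of at least 5 CPM, the median deviation from a member's own mean, on the log2 scale, was -1.05 to 0.14 in KO basal and -0.65 to -0.35 in WT basal libraries. In KO LP it was -0.60 to 0.53, and in WT LP -0.08 to 0.37. It was 0.24 to 0.66 in KO ML and 0.36 to 0.53 in WT ML libraries. Every ML library thus lay above all WT basal libraries and all KO basal libraries, while KO LP libraries overlapped the ML libraries and the basal libraries of both genotypes, and WT LP libraries lay above all WT basal libraries.

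**Figure D1:**
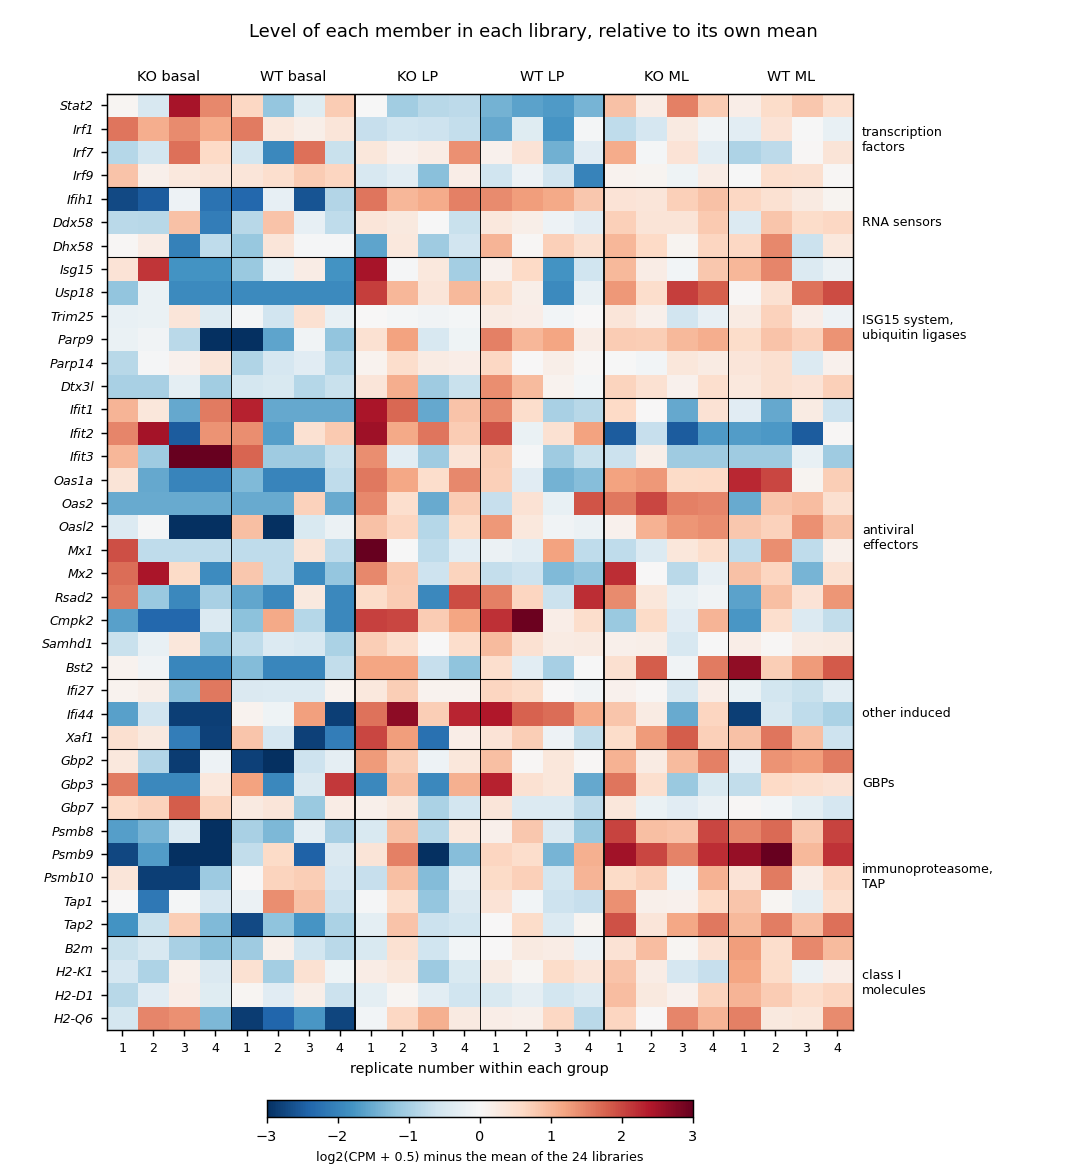
Each cell shows 1 member in 1 library as log2(CPM + 0.5) minus its mean over the 24 libraries, with members grouped by role and libraries by population and genotype (4 replicates each) and colours capped at 3 in either direction. Ifih1 is blue in most basal columns and H2-Q6 in all WT basal columns, and Psmb8, Psmb9 and Tap2 are red in the ML columns.

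The populations were compared within each genotype, since 3 cell types were sorted from the glands of each. In WT, 3 of the 36 members tested were higher in basal than in LP cells and 8 were lower (edgeR's quasi-likelihood test, adjusted p under 0.05), against 9.12% and 6.68% of all genes tested. In KO, 2 of 38 were higher and 5 lower, against 8.12% and 6.69%. Between basal and ML cells, 15 of 36 were lower and none higher in WT, against 10.6% and 14.0% of genes, and 6 of 38 were lower and 2 higher in KO, against 7.51% and 11.9% (19.4% in all). Between LP and ML cells, 4 of 36 were lower and none higher in WT, against 4.89% and 6.62%, and no member of 38 passed in KO, where 5.67% of genes did. In that last contrast 5 members had an unadjusted p under 0.05, and DESeq2 called 1 member, Ifit2. The median log2 fold change of basal over LP cells was -0.51 in KO and -0.79 in WT, that of basal over ML cells -0.94 in KO and -0.91 in WT, and that of LP over ML cells -0.31 in KO and -0.36 in WT. The same medians over all genes lay between -0.03 and 0.02. In bulk samples, fewer cells of a type and less RNA per cell cannot be told apart. In both genotypes, 3 members passed between basal and LP cells in the same direction (Stat2 and Irf1 higher, Ifih1 lower). Between basal and ML cells 5 did so (Ifih1, Usp18, Psmb8, Psmb9 and B2m, all lower). The share of all genes that passed in both genotypes is not given. With the libraries that stood apart left out, a setting chosen after seeing the data, the counts were 8 against LP and 12 against ML in KO (without KO basal replicate 3) and 13 and 17 in WT (without WT basal replicate 2). The first gained Ddx58, Samhd1 and Psmb8 against LP, where Stat2 and Psmb9 were lost, and Ddx58, Dtx3l, Tap2 and H2-D1 against ML. The second gained Cmpk2 and B2m against LP, and Ddx58 and Ifit2 against ML. In KO, leaving out 1 replicate number lowered the counts to as few as 3 against LP and 4 against ML (without replicate 4). In WT they fell to 3 against LP (without replicate 1) and 9 against ML (without replicate 4). Shares of all genes are not given for these left-out settings, so the changes are not read as particular to the members. For scale in what follows, basal and LP libraries did not overlap for 19.1% of all genes in KO (8.44% higher, 10.6% lower) and 19.5% in WT (9.50% higher, 9.97% lower). Basal and ML libraries did not overlap for 24.8% in KO (10.9% higher, 13.9% lower) and 27.0% in WT (14.2% lower), and LP and ML libraries for 18.1% in KO (9.24% higher, 8.89% lower) and 23.9% in WT (11.8% higher, 12.0% lower). Mx1 and Ifit3 had too few counts for the test in both genotypes, Isg15 and Ifit1 in WT. Filtering on low counts keeps a gene that is detected in 1 population only, so such members were bound to differ.

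**Figure D2:**
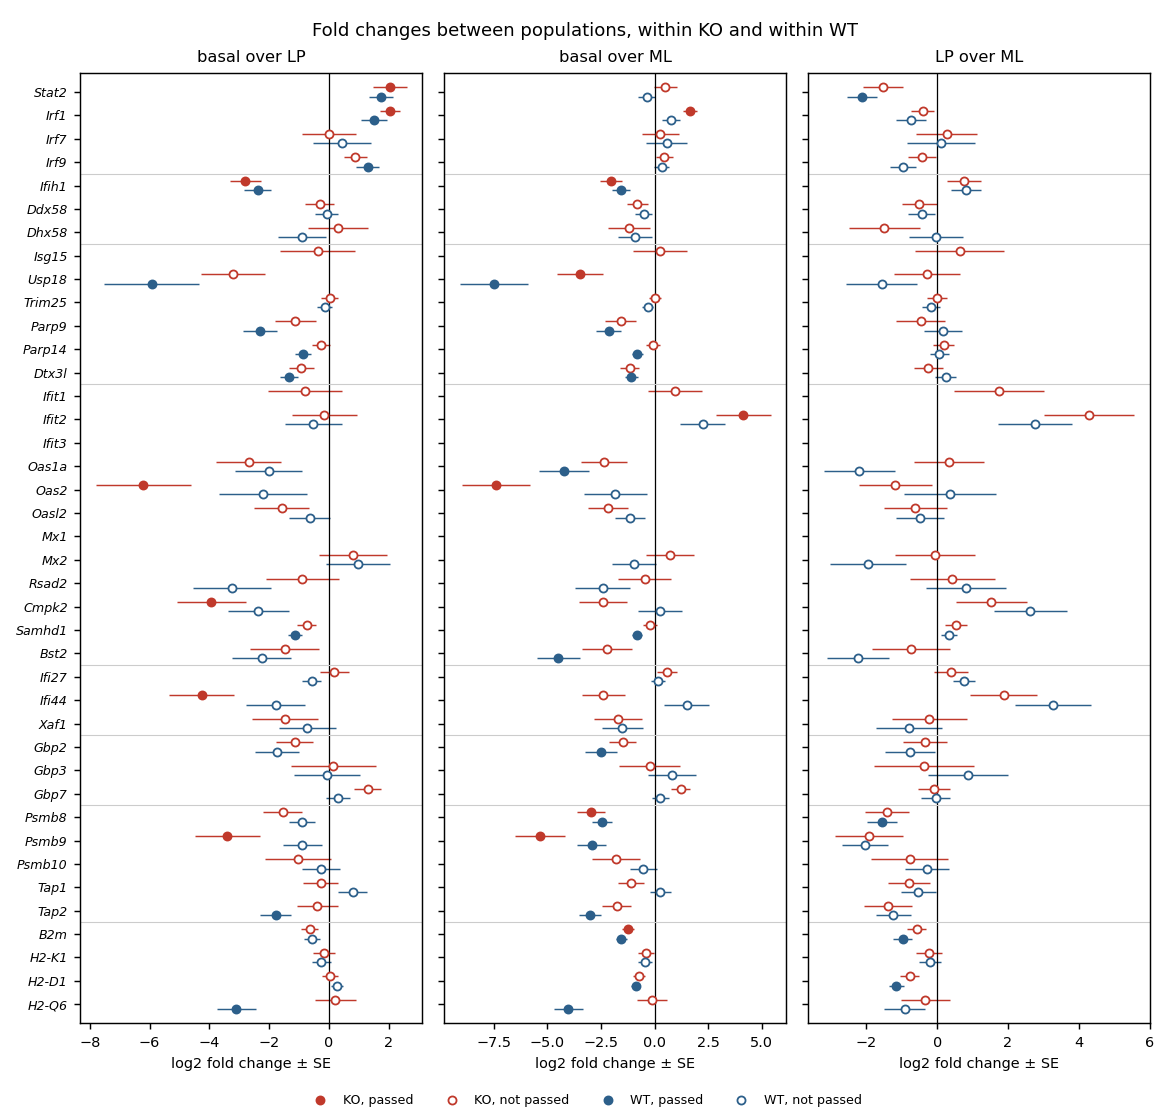
Points are log2 fold changes with SE bars of the members tested, basal over LP, basal over ML and LP over ML, for KO (red) and WT (blue), and filled points passed at an adjusted p under 0.05. Irf1 and Stat2 lie right of 0 and Ifih1 left of 0 in the first panel for both genotypes, with values of 1.52 to 2.05 and of -2.80 to -2.38.

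Among the transcription factors, Irf1 and Stat2 were higher in basal than in LP cells of both genotypes, by 1.52 to 2.05 on the log2 scale, and Irf9 was higher in WT. Irf1 (chr11:53770014-53778374, positions on mm10 from GENCODE) had 107, 73.9, 93.0 and 75.6 CPM in KO basal libraries, against 104, 43.2, 39.2 and 44.4 CPM in WT basal libraries. In LP cells, Irf1 had 21.3, 22.8, 22.3 and 20.9 CPM in KO LP libraries, against 11.6, 26.7, 9.88 and 33.2 CPM in WT LP libraries. Its ML levels were 20.4, 24.3, 41.7 and 32.3 CPM in KO ML libraries, against 27.7, 46.1, 34.2 and 29.6 CPM in WT ML libraries. All basal libraries lay above all LP libraries, and all KO basal libraries above all KO ML libraries. The log2 fold change of Irf1 in basal over LP cells was 2.05 ± 0.32 (edgeR adjusted p = 0.000325) in KO and 1.52 ± 0.43 (edgeR adjusted p = 0.0240) in WT. Basal over ML, it was 1.64 ± 0.32 (edgeR adjusted p = 0.00144) in KO, and 0.76 ± 0.42 (edgeR adjusted p = 0.208) in WT, where WT basal replicate 1 alone was above 100 CPM. The WT call against LP was lost without the libraries of replicate 1 or replicate 3 (adjusted p up to 0.225). Stat2 (chr10:128270559-128292849), which brings the activation domain of the interferon complex, had 22.2, 15.3, 120.0 and 58.9 CPM in KO basal libraries, against 32.9, 9.23, 16.6 and 36.3 CPM in WT basal libraries. In LP cells, Stat2 had 21.1, 10.0, 11.8 and 12.3 CPM in KO LP libraries, against 7.69, 6.71, 6.26 and 7.75 CPM in WT LP libraries. Mature luminal levels of Stat2 were 39.9, 25.1, 62.3 and 36.5 CPM in KO ML libraries, against 24.5, 31.8, 37.6 and 30.7 CPM in WT ML libraries. LP cells were thus the low population, with all WT LP libraries below every other WT library. Stat2 in basal over LP cells stood at 2.04 ± 0.57 (edgeR adjusted p = 0.0223) in KO and 1.75 ± 0.42 (edgeR adjusted p = 0.00857) in WT. The KO call was lost without KO basal replicate 3 (1.21, adjusted p = 0.101) and without all libraries of replicate 3 or 4, the WT call without replicate 1 or 4 (adjusted p up to 0.0916). LP over ML, Stat2 was -1.54 ± 0.56 (edgeR adjusted p = 0.146) in KO and -2.12 ± 0.42 (edgeR adjusted p = 0.00333) in WT, where the call held under all 8 alternatives. Irf9, the DNA-binding partner of Stat2, averaged 35.6 ± 4.29 CPM in WT basal and 14.6 ± 6.60 CPM in WT LP libraries (SD, n = 4 each), 1.30 ± 0.37 (edgeR adjusted p = 0.0265), a call lost without replicate 1, 3 or 4 (adjusted p up to 0.132). In KO, Irf9 was 0.89 ± 0.40 (edgeR adjusted p = 0.151), and it passed with DESeq2 (0.909, adjusted p = 0.0374). Irf7, which amplifies the type I interferon response, stayed at or below 7.85 CPM in every library and passed in no contrast.

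**Figure D3:**
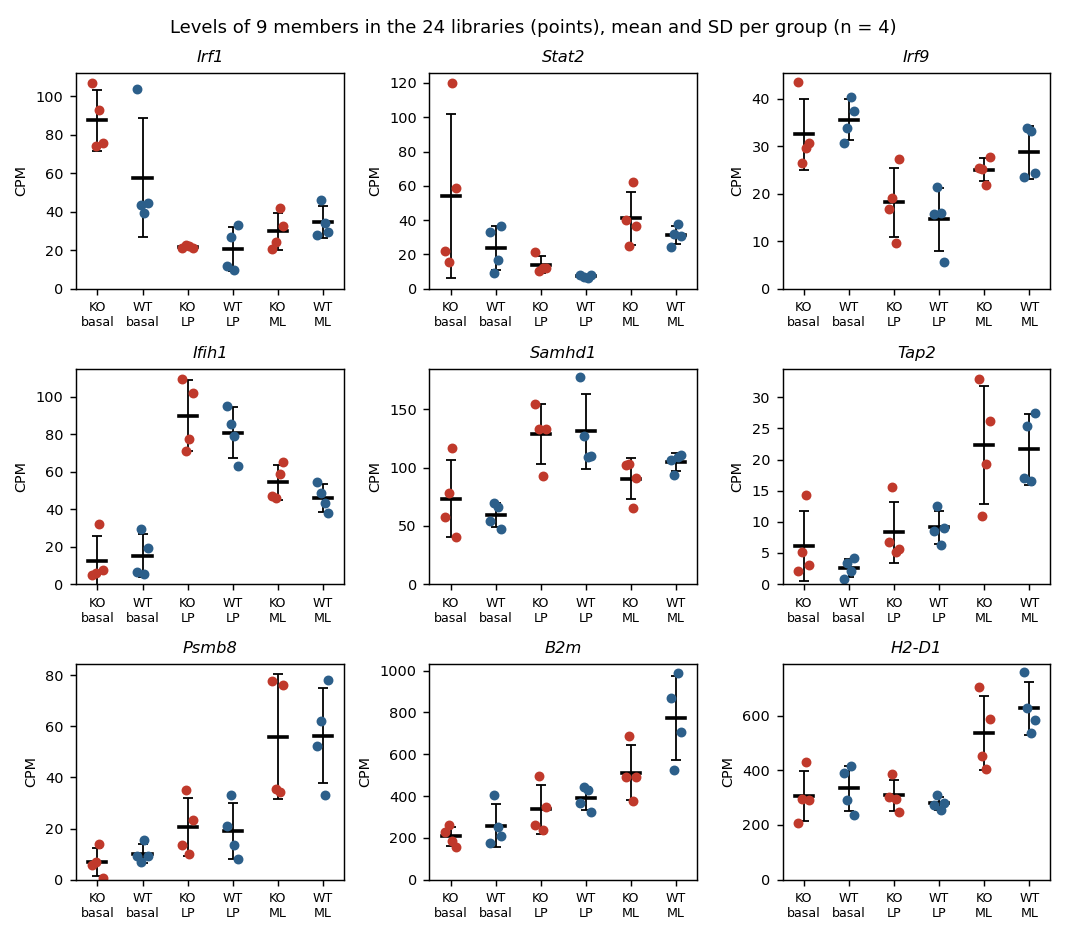
Points are CPM in single libraries of 9 members, KO left of WT within basal, LP and ML cells, with the mean and SD of each group (n = 4). Irf1 is highest in basal cells, Ifih1 in LP cells, and Psmb8, Tap2, B2m and H2-D1 in ML cells, with KO and WT points overlapping in most panels.

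Of the RNA sensors, Ifih1 was lower in basal cells than in both luminal populations, and its LP level was the highest of the 3. Ifih1 (chr2:62595798-62646255), a helicase that detects long double-stranded RNA, had 4.99, 5.84, 31.9 and 7.30 CPM in KO basal libraries, against 6.52, 29.7, 5.43 and 19.1 CPM in WT basal libraries. In LP cells, Ifih1 had 109, 70.9, 77.4 and 102 CPM in KO LP libraries, against 95.2, 85.7, 79.0 and 63.0 CPM in WT LP libraries. In ML cells, Ifih1 had 47.2, 46.0, 58.6 and 65.4 CPM in KO ML libraries, against 54.7, 48.5, 43.0 and 37.7 CPM in WT ML libraries. Every basal library was below every luminal library, and every LP library was above every ML library of its own genotype. Basal over LP, the log2 fold change of Ifih1 was -2.80 ± 0.52 (edgeR adjusted p = 0.00142) in KO and -2.38 ± 0.44 (edgeR adjusted p = 0.00140) in WT, calls that held under all 9 alternatives in each genotype. WT basal replicate 2, the library rich in LP markers, had the highest WT basal level, and without it the WT value was -2.95 (adjusted p = 5.5e-05). KO basal replicate 3 likewise had the highest KO basal level, and without it the KO value was -3.90 (adjusted p = 2.03e-06). Basal over ML, Ifih1 was -2.04 ± 0.51 (edgeR adjusted p = 0.00918) in KO and -1.57 ± 0.43 (edgeR adjusted p = 0.0142) in WT. These calls were lost without replicate 1 or 4 in KO and without replicate 1, 3 or 4 in WT (adjusted p up to 0.110 and 0.0967). The difference between LP and ML cells was 0.75 ± 0.49 (edgeR adjusted p = 0.548) in KO and 0.81 ± 0.42 (edgeR adjusted p = 0.263) in WT. Ddx58, which detects short RNA ends, passed in no population contrast, with group means of 36.1 to 67.2 CPM. Without KO basal replicate 3, which had its highest level (83.6 CPM), Ddx58 passed in KO basal over LP (-1.20, edgeR adjusted p = 0.0379) and over ML cells (-1.70, edgeR adjusted p = 0.00444). Dhx58, a regulator of the other two, stayed at or below 5.12 CPM.

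In the group of the Isg15 system and ubiquitin ligases, 4 of 5 members tested were lower in WT basal cells than in both WT luminal populations. These were Usp18, Dtx3l, Parp9 and Parp14 (beside 6.68% of all genes against LP and 10.6% against ML). In KO 1 of 6 (Usp18, against ML) passed (beside 7.51%). Dtx3l (chr16:35926511-35939151) and Parp9 (chr16:35938470-35972605) are a ubiquitin ligase and its partner, encoded head to head. Dtx3l had 24.3, 24.3, 39.0 and 23.1 CPM in KO basal libraries, against 33.5, 35.2, 26.6 and 30.0 CPM in WT basal libraries. In LP cells, Dtx3l had 62.2, 103, 22.96 and 30.2 CPM in KO LP libraries, against 127, 94.4, 52.3 and 46.0 CPM in WT LP libraries. Its ML levels were 76.8, 66.4, 52.6 and 68.4 CPM in KO ML libraries, against 60.5, 67.3, 64.8 and 80.0 CPM in WT ML libraries. WT basal libraries were all below WT LP and WT ML libraries, and the KO LP libraries fell on both sides of the KO basal range. Dtx3l in basal over LP cells was -0.92 ± 0.42 (edgeR adjusted p = 0.168) in KO and -1.33 ± 0.31 (edgeR adjusted p = 0.00687) in WT. Parp9 had 13.5, 14.5, 8.78 and 0.235 CPM in KO basal libraries, against 0.870, 4.91, 14.5 and 6.63 CPM in WT basal libraries. LP levels of Parp9 were 21.7, 36.9, 11.1 and 14.2 CPM in KO LP libraries, against 45.9, 31.5, 36.1 and 18.4 CPM in WT LP libraries. These groups do not overlap in WT and do in KO. Parp9 in basal over LP cells was -1.12 ± 0.70 (edgeR adjusted p = 0.329) in KO and -2.31 ± 0.58 (edgeR adjusted p = 0.0121) in WT. The WT call of Dtx3l was lost without replicate 1 (adjusted p = 0.0741) and that of Parp9 without replicate 1 or 4 (adjusted p up to 0.0554). Against ML, both also passed in WT, with -1.10 ± 0.30 (lost without replicate 3 or 4) and -2.14 ± 0.58 (lost without replicate 2 or 4). In KO, Dtx3l against ML was -1.17 ± 0.42 (edgeR adjusted p = 0.0630), and it passed with DESeq2 (adjusted p = 0.0446), with no filter on low counts (0.0445) and without KO basal replicate 3 (-1.44, edgeR adjusted p = 0.0284). Parp14, an ADP-ribosyltransferase beside them on chromosome 16, was -0.86 ± 0.27 (edgeR adjusted p = 0.0438) in WT basal over LP cells, and -0.80 ± 0.27 (edgeR adjusted p = 0.0435) over ML cells, and each call held under 3 of 9 alternatives. With the replicate block both were lost (edgeR adjusted p = 0.0532 and 0.0565).

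Usp18, the protease that removes Isg15 and dampens receptor signalling, had no count in any WT basal library. Usp18 (chr6:121245906-121270917) had 0.322, 1.13, 0 and 0 CPM in KO basal libraries, against 0, 0, 0 and 0 CPM in WT basal libraries. In LP cells it had 7.35, 3.23, 1.89 and 3.16 CPM in KO LP libraries, against 2.27, 1.59, 0 and 1.11 CPM in WT LP libraries. ML levels of Usp18 were 4.08, 2.18, 7.32 and 5.93 CPM in KO ML libraries, against 1.40, 2.05, 5.23 and 6.78 CPM in WT ML libraries. Taking 3 counts per library as the limit, WT basal cells were at least 2.05-fold below the WT LP mean. Against the WT ML mean they were at least 6.37-fold lower. Such bounds allow for counting error and not for the spread between libraries, and WT LP replicate 3 also had no count. The differences passed in WT (edgeR adjusted p = 0.0230 against LP and 0.00387 against ML). The first was lost with the replicate block (0.0524) and without replicate 1, 2 or 4 (up to 0.112). In KO the log2 fold change of Usp18 was -3.49 ± 1.08 (edgeR adjusted p = 0.0308) against ML. That call was lost with no filter on low counts and without replicate 1, 3 or 4 (up to 0.162). Against KO LP, Usp18 did not pass, although all KO basal libraries lay below all KO LP libraries. It passed there with DESeq2 (-3.24, adjusted p = 0.00440) and without replicate 2 (-4.69, edgeR adjusted p = 0.0357). Trim25, the ligase that activates Ddx58, was nearly level, with group means of 79.3 to 102 CPM and log2 fold changes between populations of -0.32 to 0.03. Isg15 itself, the ubiquitin-like modifier, had 1.77, 7.16, 0 and 0 CPM in KO basal libraries, against 0.290, 0.982, 1.51 and 0 CPM in WT basal libraries, and its highest value was 9.04 CPM in KO LP replicate 1.

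Most antiviral effectors were near the limit of detection, and Samhd1 was the abundant exception. Samhd1 (chr2:157097533-157135265), which degrades the nucleotides that viral DNA synthesis needs, had 57.8, 78.0, 117 and 40.3 CPM in KO basal libraries, against 53.9, 69.3, 65.8 and 47.1 CPM in WT basal libraries. In LP cells, Samhd1 had 155, 133, 92.8 and 133 CPM in KO LP libraries, against 178, 127, 109 and 110.1 CPM in WT LP libraries. In ML cells, Samhd1 had 102, 103, 65.3 and 91.4 CPM in KO ML libraries, against 106, 93.9, 109 and 111 CPM in WT ML libraries. WT basal libraries were all below the WT luminal ones, while KO basal replicate 3 reached into the KO LP range. Basal over LP, Samhd1 was -0.74 ± 0.32 (edgeR adjusted p = 0.139) in KO and -1.13 ± 0.22 (edgeR adjusted p = 0.00246) in WT, and the WT call held under all 9 alternatives. Without KO basal replicate 3 the KO value was -1.13 and passed (edgeR adjusted p = 0.0138). Against ML it was -0.21 ± 0.32 (edgeR adjusted p = 0.696) in KO and -0.81 ± 0.22 (edgeR adjusted p = 0.0148) in WT. The WT call against ML was lost without replicate 1, 3 or 4 (adjusted p up to 0.118). Bst2 (chr8:71534255-71537456), the tether that holds budding virions, had 1.61, 1.32, 0 and 0 CPM in KO basal libraries, against 0.290, 0, 0 and 0.663 CPM in WT basal libraries. ML levels of Bst2 were 2.21, 6.42, 1.31 and 5.21 CPM in KO ML libraries, against 11.9, 2.73, 4.22 and 6.48 CPM in WT ML libraries. No WT basal library reached 1 CPM, and none of WT ML was below 2.73 CPM. Basal over ML, Bst2 was -2.20 ± 1.17 (edgeR adjusted p = 0.217) in KO and -4.48 ± 1.02 (edgeR adjusted p = 0.00416) in WT.

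Oas2 and Oas1a, synthetases of the messenger that activates RNase L, were also scarce in basal cells. Oas2 (chr5:120730333-120749853) had 0, 0, 0 and 0 CPM in KO basal libraries, against 0, 0, 1.81 and 0 CPM in WT basal libraries. In ML cells, Oas2 had 3.74, 5.19, 3.57 and 3.41 CPM in KO ML libraries, against 0, 2.05, 2.21 and 1.47 CPM in WT ML libraries. LP levels of Oas2 were 3.39, 1.53, 0 and 1.93 CPM in KO LP libraries, against 0.378, 1.41, 0.723 and 4.75 CPM in WT LP libraries. KO basal cells had no count in any library. Counting 3 per library as the limit, they were at least 2.51-fold below the KO LP mean and at least 5.82-fold below the KO ML mean. These bounds also leave out the spread between libraries, and KO LP replicate 3 had no count either. The differences from LP and ML passed with edgeR adjusted p = 0.0173 and 0.00474, the first lost without replicate 1, 2 or 4 (up to 0.101). In WT, Oas2 was -2.20 ± 1.47 (edgeR adjusted p = 0.365) against LP and -1.84 ± 1.47 (edgeR adjusted p = 0.401) against ML. Oas1a had 0.290, 0, 0 and 0.663 CPM in WT basal and 9.06, 7.51, 1.61 and 2.80 CPM in WT ML libraries, -4.23 ± 1.15 (edgeR adjusted p = 0.0133), a call lost without replicate 2 (adjusted p = 0.0574). In KO basal libraries Oas1a had 2.09, 0.188, 0 and 0 CPM, below all KO LP and KO ML libraries, and did not pass. It passed as lower there with DESeq2 (adjusted p = 0.0235 against LP and 0.0445 against ML). Without replicate 1 it also passed against both (edgeR adjusted p = 0.0263 and 0.0259). Ifit2 (chr19:34550694-34576419), which binds viral RNA, had its lowest levels in ML cells. Ifit2 had 7.25, 15.3, 0 and 6.59 CPM in KO basal libraries, against 6.81, 0.393, 3.32 and 4.31 CPM in WT basal libraries. In LP cells, Ifit2 had 15.8, 5.61, 8.05 and 4.21 CPM in KO LP libraries, against 10.1, 1.94, 3.37 and 6.01 CPM in WT LP libraries. Its ML levels were 0, 1.23, 0 and 0.359 CPM in KO ML libraries, against 0.383, 0.341, 0 and 2.36 CPM in WT ML libraries. KO LP and KO ML libraries did not overlap. Basal over ML, Ifit2 was 4.13 ± 1.28 (edgeR adjusted p = 0.0306) in KO, lost without replicate 1 or 4 (up to 0.143), and 2.24 ± 1.03 (edgeR adjusted p = 0.132) in WT. LP over ML, it was 4.29 ± 1.28 (edgeR adjusted p = 0.0622) in KO, where it had the smallest p of the members and passed with the replicate block (5.16, edgeR adjusted p = 0.0425). In WT it was 2.76 ± 1.04 (edgeR adjusted p = 0.108), and it passed with DESeq2 (adjusted p = 0.0329). Cmpk2 (chr12:26469204-26479837), a nucleotide kinase next to Rsad2 on chromosome 12, had 0.322, 0, 0 and 1.41 CPM in KO basal libraries, against 0.580, 5.11, 0.905 and 0.166 CPM in WT basal libraries. LP levels of Cmpk2 were 9.98, 9.69, 3.79 and 5.27 CPM in KO LP libraries, against 11.1, 19.1, 2.41 and 3.16 CPM in WT LP libraries. All KO LP libraries lay above all KO basal ones. Cmpk2 in basal over LP cells was -3.93 ± 1.15 (edgeR adjusted p = 0.0285) in KO, lost without replicate 1 or 2 (up to 0.127), and -2.36 ± 1.02 (edgeR adjusted p = 0.139) in WT. In WT it passed with the replicate block (-2.83, edgeR adjusted p = 0.0435) and without WT basal replicate 2, the library rich in LP markers (-4.06, edgeR adjusted p = 0.0110). Of the remaining effectors, Ifit1, Oasl2, Mx2 and Rsad2 passed in no population contrast where they were tested, and Ifit3 and Mx1 were not tested. With other settings, Oasl2 passed as lower in KO basal than KO ML cells with DESeq2 (adjusted p = 0.0348), and Rsad2 as lower in WT basal than in WT LP and WT ML cells without replicate 3 (edgeR adjusted p = 0.0292 and 0.0415). Ifit3, at 1.61, 0, 13.0 and 17.9 CPM in KO basal and 0.170, 0.683, 0 and 0 CPM in KO ML libraries, passed as higher in KO basal cells with DESeq2 (adjusted p = 0.00417), with no filter on low counts (0.0195) and without replicate 2 (0.0116). Oasl2 was the most abundant of these, at up to 18.9 CPM in KO ML replicate 4.

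Ifi44, an interferon-induced protein, was highest in LP cells. Ifi44 (chr3:151730922-151749960) had 10.5, 22.3, 5.44 and 16.9 CPM in KO LP libraries, against 18.1, 11.7, 10.8 and 7.12 CPM in WT LP libraries. Basal levels of Ifi44 were 0.644, 1.88, 0 and 0 CPM in KO basal libraries, against 3.33, 2.75, 7.85 and 0 CPM in WT basal libraries. In ML cells, Ifi44 had 5.77, 3.69, 0.751 and 5.03 CPM in KO ML libraries, against 0, 2.05, 1.61 and 1.33 CPM in WT ML libraries. KO LP libraries were all above KO basal libraries, and WT LP libraries all above WT ML libraries. Basal over LP, Ifi44 was -4.26 ± 1.08 (edgeR adjusted p = 0.0125) in KO, lost without replicate 1 or 4 (up to 0.0918), and -1.78 ± 1.00 (edgeR adjusted p = 0.269) in WT. LP over ML, it was 1.87 ± 0.95 (edgeR adjusted p = 0.366) in KO and 3.27 ± 1.06 (edgeR adjusted p = 0.0597) in WT. The WT difference passed with DESeq2 (adjusted p = 0.00744) and with no filter on low counts (edgeR adjusted p = 0.0393). Ifi27 and Xaf1, linked to mitochondria and cell death, passed in no population contrast. Of the guanylate-binding proteins, GTPases that act on intracellular pathogens, Gbp2 averaged 3.96 ± 3.97 CPM in WT basal and 22.4 ± 9.63 CPM in WT ML libraries (SD, n = 4 each), -2.50 ± 0.75 (edgeR adjusted p = 0.0239). That call was lost whichever replicate number was left out (adjusted p up to 0.0762). Gbp3 and Gbp7 passed in none. With DESeq2, Gbp7 passed as higher in KO basal than in KO LP (1.34, adjusted p = 0.0146) and KO ML cells (1.23, adjusted p = 0.0242). All KO basal libraries of Gbp7 lay above all KO LP and KO ML libraries.

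The immunoproteasome subunits Psmb8 and Psmb9, which cut proteins into peptides that fit class I molecules, were both lower in basal than in ML cells of each genotype. They lie with the transporter genes Tap1 and Tap2 in 1 stretch of chromosome 17, from 34181987 (Psmb9) to 34216321 (Tap2). Psmb8 had 5.64, 6.79, 14.0 and 0.706 CPM in KO basal libraries, against 9.28, 7.07, 15.4 and 9.12 CPM in WT basal libraries. In LP cells, Psmb8 had 13.6, 35.2, 10.2 and 23.5 CPM in KO LP libraries, against 21.0, 33.2, 13.7 and 8.23 CPM in WT LP libraries. In ML cells, Psmb8 had 77.9, 35.6, 34.4 and 76.1 CPM in KO ML libraries, against 52.3, 62.1, 33.2 and 78.0 CPM in WT ML libraries. Every ML library was above every basal library of both genotypes, and LP lay between, overlapping both. Psmb8 in basal over ML cells was -2.96 ± 0.67 (edgeR adjusted p = 0.00434) in KO and -2.45 ± 0.44 (edgeR adjusted p = 0.000764) in WT. The KO call was lost without replicate 1 (adjusted p = 0.0551), and the WT call held under all 9 alternatives. LP over ML, Psmb8 was -1.41 ± 0.62 (edgeR adjusted p = 0.260) in KO and -1.56 ± 0.43 (edgeR adjusted p = 0.0248) in WT, the WT call being lost without replicate 1, 3 or 4 (up to 0.225). Psmb9 had 0.644, 1.88, 0 and 0.235 CPM in KO basal libraries, against 4.06, 10.8, 0.905 and 5.14 CPM in WT basal libraries. In LP cells, Psmb9 had 9.42, 21.1, 0 and 2.63 CPM in KO LP libraries, against 11.3, 10.4, 2.41 and 15.3 CPM in WT LP libraries. ML levels of Psmb9 were 43.3, 30.0, 20.7 and 34.8 CPM in KO ML libraries, against 45.7, 69.0, 14.5 and 33.9 CPM in WT ML libraries. No basal library exceeded 10.8 CPM, and no ML library fell under 14.5 CPM. Psmb9 in basal over ML cells was -5.32 ± 1.16 (edgeR adjusted p = 0.00342) in KO and -2.93 ± 0.68 (edgeR adjusted p = 0.00482) in WT, calls that held under all 9 alternatives in each genotype. Basal over LP, it was -3.40 ± 1.09 (edgeR adjusted p = 0.0456) in KO, a call lost without KO basal replicate 3 (-3.13, adjusted p = 0.0636) and without replicate 1, 2 or 4, and -0.89 ± 0.65 (edgeR adjusted p = 0.420) in WT. LP over ML, Psmb9 was -1.93 ± 0.96 (edgeR adjusted p = 0.357) in KO and -2.04 ± 0.65 (edgeR adjusted p = 0.0542) in WT, where it passed with the replicate block (edgeR adjusted p = 0.00479), with DESeq2 (0.0146), with no filter (0.0411) and without replicate 3 (0.0324).

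Tap2, a subunit of the peptide transporter, was lowest in basal and highest in ML cells of WT glands, and its partner Tap1 passed in no contrast. Tap2 had 2.09, 5.09, 14.3 and 3.06 CPM in KO basal libraries, against 0.870, 3.34, 2.11 and 4.14 CPM in WT basal libraries. In LP cells, Tap2 had 6.78, 15.6, 5.21 and 5.62 CPM in KO LP libraries, against 8.57, 12.5, 6.26 and 9.02 CPM in WT LP libraries. Its ML levels were 32.9, 10.9, 19.3 and 26.2 CPM in KO ML libraries, against 17.1, 25.4, 16.5 and 27.4 CPM in WT ML libraries. The 3 WT populations did not overlap, whereas KO basal replicate 3 (14.3 CPM) lay within the KO LP and KO ML ranges. Tap2 in basal over ML cells was -1.77 ± 0.69 (edgeR adjusted p = 0.0839) in KO and -3.02 ± 0.53 (edgeR adjusted p = 0.000570) in WT, where it held under all 9 alternatives. Without KO basal replicate 3 the KO value was -2.68 and passed (edgeR adjusted p = 0.00655). LP over ML in WT, Tap2 did not pass with edgeR, and it passed with DESeq2 (-1.24, adjusted p = 0.0333). Basal over LP, it was -0.38 ± 0.68 (edgeR adjusted p = 0.775) in KO and -1.78 ± 0.51 (edgeR adjusted p = 0.0265) in WT, the WT call being lost whichever replicate number was left out (up to 0.116). Tap1 averaged 20.1 ± 12.5 CPM in WT basal, 11.7 ± 4.52 CPM in WT LP and 17.0 ± 5.89 CPM in WT ML libraries (SD, n = 4 each). Psmb10, the remaining immunoproteasome subunit, passed in no population contrast either.

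Among the class I molecules, B2m and H2-D1 were highest in ML cells, H2-K1 passed in no contrast, and H2-Q6 was lowest in WT basal cells. B2m (chr2:122147686-122153083), the light chain shared by all class I molecules, had 228, 261, 184 and 155 CPM in KO basal libraries, against 174, 404, 250.2 and 208 CPM in WT basal libraries. In LP cells, B2m had 264, 497, 239.6 and 347 CPM in KO LP libraries, against 365, 443, 427 and 324 CPM in WT LP libraries. In ML cells, B2m had 491, 689.7, 377 and 492 CPM in KO ML libraries, against 869.6, 525, 989 and 705 CPM in WT ML libraries. Every ML library was above every basal library of its own genotype. B2m in basal over ML cells was -1.23 ± 0.28 (edgeR adjusted p = 0.00452) in KO, lost without replicate 4 (adjusted p = 0.0629), and -1.55 ± 0.27 (edgeR adjusted p = 0.000611) in WT, where it held under all 9 alternatives. LP over ML, it was -0.58 ± 0.27 (edgeR adjusted p = 0.310) in KO and -0.98 ± 0.27 (edgeR adjusted p = 0.0254) in WT, lost there without replicate 1, 3 or 4 (up to 0.158). H2-D1 (chr17:35262730-35267499), a classical heavy chain, had 208, 293, 431 and 291 CPM in KO basal libraries, against 388, 292, 417 and 237 CPM in WT basal libraries. In LP cells, H2-D1 had 303, 386, 297 and 247 CPM in KO LP libraries, against 273, 311, 256 and 279 CPM in WT LP libraries. ML levels of H2-D1 were 704, 453, 404 and 588 CPM in KO ML libraries, against 759.9, 628, 536 and 583 CPM in WT ML libraries. ML libraries lay above all LP libraries in each genotype, and basal and LP levels overlapped. LP over ML, H2-D1 was -0.77 ± 0.27 (edgeR adjusted p = 0.122) in KO and -1.16 ± 0.21 (edgeR adjusted p = 0.00190) in WT. Basal over ML, it was -0.72 ± 0.27 (edgeR adjusted p = 0.0718) in KO and -0.89 ± 0.21 (edgeR adjusted p = 0.00589) in WT, and both WT calls held under all alternatives. In KO it passed without KO basal replicate 3 (edgeR adjusted p = 0.0118), without all libraries of replicate 3 (0.00977) and with no filter on low counts (0.0496).

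H2-K1 (chr17:33996017-34000347), another classical heavy chain, had group means of 575 to 1071 CPM and log2 fold changes of -0.45 to -0.17 between populations, none of which passed. H2-Q6 (chr17:35424850-35430055), a non-classical heavy chain of the Qa region, had 4.19, 17.9, 16.9 and 2.12 CPM in KO basal libraries, against 0.435, 0.786, 1.51 and 0.497 CPM in WT basal libraries. In LP cells, H2-Q6 had 5.84, 9.86, 13.5 and 7.55 CPM in KO LP libraries, against 7.18, 6.89, 9.88 and 3.32 CPM in WT LP libraries. Its ML levels were 10.0, 6.28, 18.0 and 13.1 CPM in KO ML libraries, against 18.6, 7.68, 8.05 and 17.4 CPM in WT ML libraries. WT basal libraries were below all 20 others. H2-Q6 in basal over LP cells was 0.22 ± 0.69 (edgeR adjusted p = 0.879) in KO and -3.10 ± 0.65 (edgeR adjusted p = 0.00382) in WT. Basal over ML, it was -0.11 ± 0.69 (edgeR adjusted p = 0.937) in KO and -4.02 ± 0.67 (edgeR adjusted p = 0.000370) in WT, and both WT calls held under all 9 alternatives. Of its near-identical neighbours, H2-Q7 averaged 7.61 ± 6.75 CPM in KO basal and 7.09 ± 2.83 CPM in WT basal libraries, and H2-Q4 11.4 ± 9.59 and 16.0 ± 3.18 CPM (SD, n = 4 each). How reads were divided among these copies in either genotype was not tested.

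Of 93 other genes of the interferon and class I pathway with 1 row each, 77 were tested in WT and 76 in KO. In basal over LP cells, 4 were higher and 7 lower in KO (beside 8.12% and 6.69% of all genes), and 3 higher and 6 lower in WT (beside 9.12% and 6.68%). Basal over ML, 5 were higher and 8 lower in KO (beside 11.9% and 7.51%), and 3 higher and 14 lower in WT (beside 14.0% and 10.6%). LP over ML, none was higher and 2 were lower in KO (beside 4.08% and 1.59%), and 1 was higher and 5 were lower in WT (beside 6.62% and 4.89%). Ifitm3, a membrane protein that blocks viral entry, and Socs3, a feedback inhibitor of cytokine signalling, had the smallest p in basal over LP cells of both genotypes. Ifitm3 averaged 589.7 ± 115 CPM in KO basal and 439.6 ± 47.2 CPM in WT basal libraries, against 49.7 ± 18.5 CPM in KO LP and 29.4 ± 10.6 CPM in WT LP libraries (SD, n = 4 each). Its log2 fold change was 3.63 ± 0.31 (edgeR adjusted p = 9.51e-07) in KO and 3.91 ± 0.29 (edgeR adjusted p = 4.16e-07) in WT. Socs3 was 3.78 ± 0.41 (edgeR adjusted p = 1.03e-05) in KO and 3.49 ± 0.45 (edgeR adjusted p = 5.95e-05) in WT. Both stood on the same side of LP cells as Irf1 and Stat2. Tlr3, the endosomal sensor of double-stranded RNA, was lower in basal than in LP cells, -2.38 ± 0.47 (edgeR adjusted p = 0.00213) in KO and -1.80 ± 0.48 in WT, the same side as Ifih1. The others named by p were Ifitm2, higher at 1.27 ± 0.25 in KO, and Lgals3bp and Trim34a, lower at -2.80 ± 0.51 and, with no count in WT basal libraries, adjusted p = 0.00186 in WT. Basal over ML, Ifitm3 again had the smallest p and was higher, 1.91 ± 0.28 (edgeR adjusted p = 0.000134) in KO and 1.97 ± 0.27 (edgeR adjusted p = 6.89e-05) in WT. The exonuclease Isg20 was lower, -3.76 ± 0.68 (edgeR adjusted p = 0.000780) in KO and -2.67 ± 0.57 (edgeR adjusted p = 0.00267) in WT, as were Tlr3 in KO (-2.60 ± 0.47) and Lgals3bp in WT (-3.28 ± 0.52). Oas1c had no count in KO basal libraries and Trim34a none in WT basal libraries, and both passed there (edgeR adjusted p = 0.00190 and 0.00212). LP over ML, Ifitm3 and Socs3 were lower in both genotypes (-1.71 ± 0.28 and -2.00 ± 0.38 in KO, -1.95 ± 0.27 and -2.22 ± 0.43 in WT), and Tor3a and Jak2 in WT (-2.12 ± 0.51 and -1.16 ± 0.29). The receptor chain Ifnar1 had group means of 22.3 to 30.2 CPM.

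Between KO and WT no member passed in any population. In basal cells 0 of 26 members tested passed (edgeR adjusted p under 0.05, 0.00% of all genes), with 2 at an unadjusted p under 0.05. In LP cells it was 0 of 34 (0.00% of genes), with 2 at an unadjusted p under 0.05, and in ML cells 0 of 35 (0.00851% of genes), with 1. DESeq2 called 1 member in basal cells, H2-Q6, and 0 in LP and ML cells. The smallest adjusted p of a member was 0.998 in basal, 0.999 in LP and 0.998 in ML cells. The median log2 fold change of KO over WT was -0.04 in basal cells (13 of 26 above 0), 0.04 in LP cells (20 of 34) and -0.01 in ML cells (16 of 35), and over all genes 0.01, 0.00 and 0.01. Not tested for too few counts were 14 members in basal cells (Irf7, Dhx58, Isg15, Usp18, Ifit1, Ifit3, Oas1a, Oas2, Mx1, Rsad2, Cmpk2, Bst2, Xaf1 and Gbp3), 6 in LP cells (Isg15, Ifit3, Oas2, Mx1, Mx2 and Bst2) and 5 in ML cells (Ifit1, Ifit2, Ifit3, Mx1 and Cmpk2). A p that misses the threshold does not show that the genotypes are alike.

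**Figure D4:**
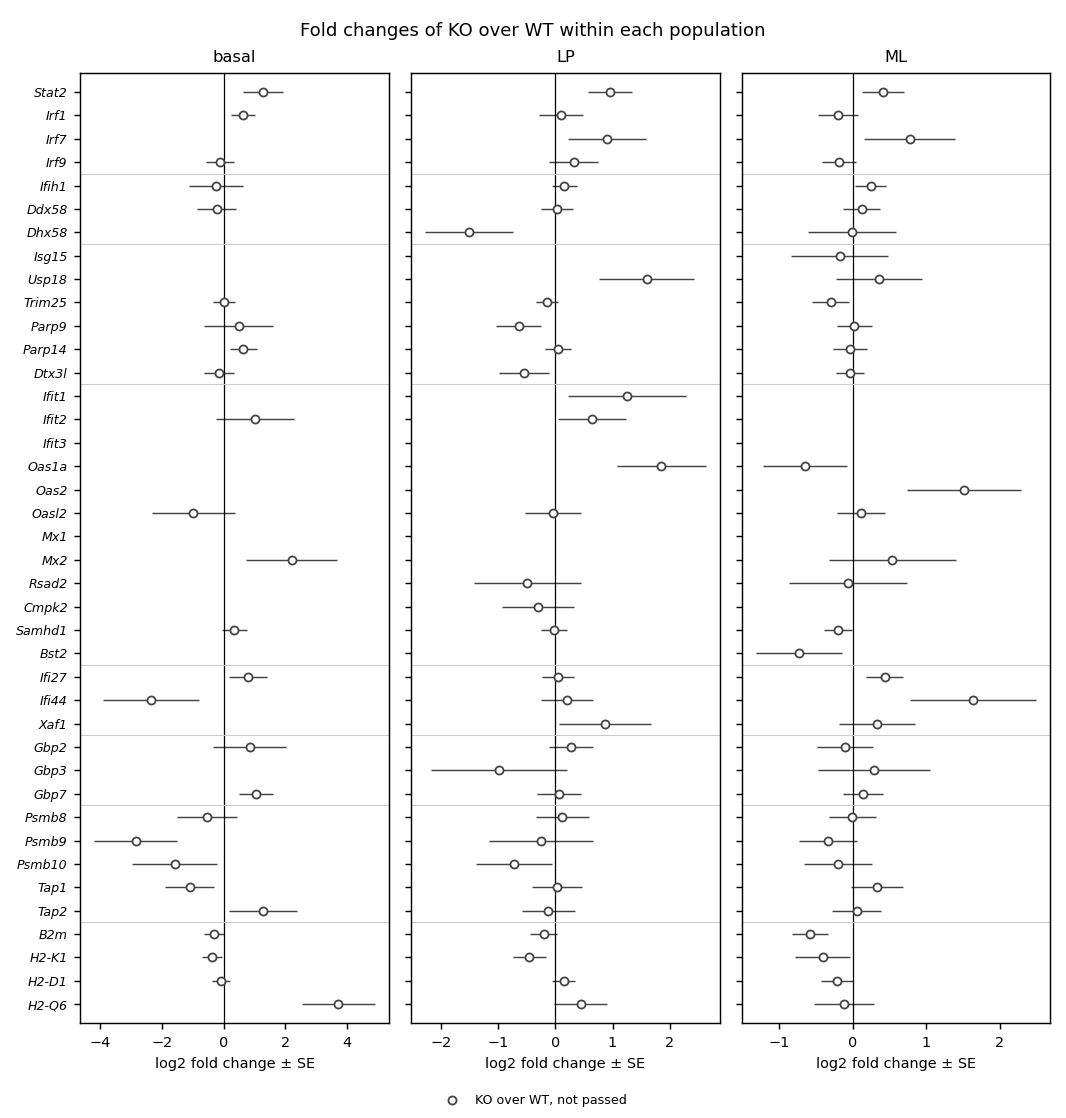
Points are log2 fold changes of KO over WT with SE bars, for the members tested in basal, LP and ML cells, and all are open because none passed. The horizontal scales differ between the panels, and in basal cells H2-Q6 lies at 3.71 and Psmb9 at -2.85.

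In basal cells the smallest p belonged to H2-Q6, Psmb9 and Stat2, none of which passed. H2-Q6 was 2.12 to 17.9 CPM in KO and 0.435 to 1.51 CPM in WT basal libraries, all KO libraries above all WT libraries. Its log2 fold change was 3.71 ± 1.19 (edgeR adjusted p = 0.998). With all 24 libraries in 1 fit its adjusted p was 0.0417, and with DESeq2 0.0448. The 10 endothelial markers summed to 59.8 to 218 CPM in KO basal and 39.9 to 85.7 CPM in WT basal libraries, and their part in this value was not tested. Psmb9 was lower at -2.85 ± 1.34 (edgeR adjusted p = 0.998), with KO basal values of 0 to 1.88 CPM and WT basal values of 0.905 to 10.8 CPM. Stat2 was 1.27 ± 0.66 (edgeR adjusted p = 0.998), and KO basal replicate 3, at 120.0 CPM, was its highest library. Gbp7 was the other member whose basal libraries did not overlap, 28.0, 29.8, 66.0 and 29.2 CPM in KO and 22.2, 23.8, 8.15 and 21.5 CPM in WT. These were 2 of 26, both higher in KO, beside 2.66% of all genes (1.07% higher).

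In LP cells Stat2 had the smallest p, with 10.0 to 21.1 CPM in KO and 6.26 to 7.75 CPM in WT libraries, which did not overlap. The ML marker sum was also higher in KO LP (819 to 1812 CPM) than in 3 of 4 WT LP libraries (538 to 827 CPM in all), and its part in this value was not tested. The log2 fold change of Stat2 was 0.96 ± 0.38 (edgeR adjusted p = 0.999). Stat2 was the only one of 34 tested members with separate groups, beside 2.69% of genes (1.50% higher and 1.20% lower). Oas1a followed, with 5.46, 3.91, 2.37 and 4.92 CPM in KO LP libraries, against 2.77, 1.06, 0.241 and 0.316 CPM in WT LP libraries, 1.85 ± 0.78 (edgeR adjusted p = 0.999). Its highest WT library lay above the lowest KO library. Dhx58 had 0.188, 2.04, 0.473 and 0.878 CPM in KO LP libraries, against 3.65, 1.59, 2.89 and 2.37 CPM in WT LP libraries, -1.51 ± 0.78 (edgeR adjusted p = 0.999). In ML cells B2m had the smallest p, with -0.58 ± 0.25 (edgeR adjusted p = 0.998) and overlapping libraries of 377 to 689.7 CPM in KO and 525 to 989 CPM in WT. All 4 class I molecules had ML values below 0, from -0.58 to -0.12. Oas2 was 1.51 ± 0.77 (edgeR adjusted p = 0.998), with KO ML libraries of 3.41 to 5.19 CPM above all WT ML libraries of 0 to 2.21 CPM, 1 of 35 members with separate groups beside 2.66% of genes (1.24% higher). Ifi44 was 1.64 ± 0.86 (edgeR adjusted p = 0.998), with libraries of 0.751 to 5.77 CPM in KO and 0 to 2.05 CPM in WT. Stat2 lay above 0 in all 3 populations, at 1.27 ± 0.66 in basal, 0.96 ± 0.38 in LP and 0.41 ± 0.28 in ML cells. It passed in none. Ifi27 also lay above 0 in all 3, and other members that did so were not counted. None of the 93 other pathway genes passed between KO and WT, with 65 tested in basal, 69 in LP and 75 in ML cells.

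Whether the effect of the KO differed between populations was asked with 1 model over the 24 libraries. Of 39 members tested, 0 passed in each of the 3 differences (edgeR, 0.00% of all genes), with 1 at an unadjusted p under 0.05 between basal and LP cells, 4 between basal and ML cells and 0 between LP and ML cells. DESeq2 called 1 member, H2-Q6, between basal and ML cells. H2-Q6 had the smallest p: its KO effect in basal cells exceeded that in LP cells by 3.27 ± 0.95 (edgeR adjusted p = 0.484), and that in ML cells by 3.83 ± 0.95 (edgeR adjusted p = 0.411). In WT 11 members differed between basal and LP cells, and 10 of these had the same sign in KO. All 15 that differed between basal and ML cells in WT, and all 4 between LP and ML cells, had the same sign in KO. The 1 exception was H2-Q6, with 0.22 ± 0.69 in KO and -3.10 ± 0.65 in WT. The KO and WT contrasts use separate libraries. The share of all genes that kept their sign is not given, so this agreement is not read as particular to the members.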

How the data were processed

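RNA-seq was analysed from 24 libraries. The deposited table holds expected counts per gene. Per the submitters' processing notes, cutadapt, STAR, RSEM and mm10 were used, without versions or settings. RNA was amplified before library preparation per the labels' protocols, with no molecular identifiers, so counts are not independent molecules. Expected counts were rounded to whole numbers (95.64% of values already were). Left out were 3 rows that name no gene (5 counts in all).

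Tests used edgeR 4.0.16 (limma 3.58.1, R 4.3.3) with TMM scaling, its default filter on low expression, robust quasi-likelihood fits and Benjamini-Hochberg adjustment over all genes tested, at 0.05. KO and WT were compared within each population over 8 libraries, populations within each genotype over 12, and differences of KO effects over all 24. Alternatives were DESeq2 1.42.0, its size factors in edgeR, no filter, the replicate number as a block, and left-out libraries. The steps were tested on simulated data. Levels are counts relative to the library total (CPM) on 1 TMM scaling of all libraries, with the SD of 4 replicates. SE is that of the log2 fold change.

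The members and gene lists were chosen with earlier results of these data known. Values in every library are given for members that passed (at most 8 per comparison, by smallest p), or for the 3 with the smallest p where none did. For other pathway genes the 4 smallest p per contrast were named, and Ifnar1, H2-Q4 and H2-Q7 were added after their values were seen. The values of 1 pathway gene are not reported here. Libraries of the same number correlated over 0.1 in every pair for KO and WT LP (0.114 to 0.344) and for KO and WT ML (0.115 to 0.324), as deviations from group means, and the block changed no call of a member there. The 3 populations of a genotype were sorted from a suspension of pooled glands, per the series' design text, which does not say which libraries share one. Between populations of a genotype the same correlation was -0.00162 to 0.295, and the block's value is given beside each call it changed. No 2 libraries of a group agreed within sampling noise (smallest chi-square per degree of freedom 19.0). Replicate numbers were taken from the titles. The separate replicate labels of the KO ML libraries read 2, 3, 3 and 4 where the titles read 1, 2, 3 and 4, so numbers of KO ML libraries, and with them the block, the correlations and the left-out replicate numbers in KO ML contrasts, are uncertain. Gene positions come from GENCODE and promoter windows from RefSeq, both on GRCm38, the build mm10.

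No label says whether counting used the strand. Psmb9 and Tap1, and Parp9 and Dtx3l, overlap on opposite strands, so reads of each pair cannot be told apart where they overlap.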

Additional observations from a re-analysis of the deposited data

Results flagged for a closer look

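Among 141 pairs of a member and a group of 4 libraries, 7 held a library whose gap to its nearest neighbour took up more than 0.829 of the group's range (Dixon's 95% critical value), and chance gives about 1 in 20 groups. KO basal replicate 3, the library with the fewest counts and the highest endothelial marker sum (218 CPM), was the library set apart for 3 of these pairs, and the highest of its group for 11 of the 23 members with a mean of at least 5 CPM. Ifih1 stood at 31.9 CPM there, with the next library at 7.30 CPM. Dtx3l stood at 39.0 CPM, with the next at 24.3 CPM, and Gbp7 at 66.0 CPM, with the next at 29.8 CPM. The part of depth and of endothelial RNA in these values was not tested. KO LP replicate 2 had 15.6 CPM of Tap2, against 6.78 CPM in the next library. Irf1 had 103.8 CPM in WT basal replicate 1 and 44.4 CPM in the next library. Ifi27 had 26.2 CPM in WT basal replicate 4 and 18.1 CPM in the next library. WT basal replicate 3 had the lowest Gbp7 level of its group, 8.15 CPM, with the next at 21.5 CPM.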

How the results depend on the processing

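No member that passed changed direction under an alternative; directions of members that did not pass were not followed. Of the counts of members that passed, 97 stayed within 1.5 times the reported value and 19 moved further. A count of 0 that stayed at 0 was put among the 97, though no ratio can be formed for it. The reported count was 0 in every comparison of KO with WT, in every difference of KO effects and between KO LP and ML cells. Of the values of single members that passed, 325 stayed past the threshold and 75 did not. The cause was not tested. DESeq2 called 1 member between KO and WT basal cells (H2-Q6), as did the fit of all 24 libraries (1). It called 11 between KO basal and LP cells, against 7 with edgeR, and 17 between KO basal and ML cells, against 8. It called 9 between WT LP and ML cells, against 4, and 1 between KO LP and ML cells, against 0. It called 1 (H2-Q6) for the KO effect in basal minus that in ML cells. Shares of all genes are not given for the contrasts between populations under DESeq2 or the other settings. A change in calls over all genes thus cannot be told apart from one in the members. Between KO LP and ML cells, no filter on low counts gave 1 (Ifit2), as did the replicate block (1). The block gave 7 and 8 members between KO basal and luminal cells, and 10, 14 and 5 in the WT contrasts (basal over LP, basal over ML, LP over ML). It left the comparisons of KO with WT and the differences of KO effects at 0. Leaving out 1 replicate number, or 1 of the libraries that stood apart, gave 3 to 9 members between KO basal and LP cells, 4 to 12 between KO basal and ML, and 0 to 1 between KO LP and ML. The same gave 3 to 13 between WT basal and LP cells, 9 to 17 between WT basal and ML, and 2 to 4 between WT LP and ML. The lowest counts came without replicate 4 in KO (3 and 4) and WT basal over ML (9), and without replicate 1 in WT basal over LP (3, with 5 without replicate 4). Leaving out a library kept all comparisons of KO with WT at 0. With no filter, 30 genes passed between KO and WT basal cells, against 0, and no member. With 4 replicates and 3098433 to 7246445 counts, values of members under about 1 CPM rest on few counts.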
